A study of Mus musculus with 8 samples.

Results

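Lactase, the other disaccharidases and the transporters and enzymes that handle their sugars were examined in the small intestine of mice lacking IκBα in the epithelium. The 9 genes were taken by symbol and comprise the brush-border hydrolase genes Lct, Sis, Treh and Mgam, the sugar transporter genes Slc5a1, Slc2a2 and Slc2a5, and the enzyme genes Khk and G6pc. Each had 1 probe set, so 9 of the 19505 genes named on the array are described. The knockout (KO) mice, n = 4, carried a floxed Nfkbia, which encodes IκBα, and Villin-Cre, which acts in the intestinal epithelium where recombination removes the promoter and first 2 exons of the gene. The WT mice, n = 4, were littermates labelled WT, and 1 sibling pair joins each KO mouse to its control. All mice were untreated, fed standard pellets and 8 to 11 weeks old. KO and WT each had 2 males. The siblings shared their sex in pairs 1 (male) and 2 (female), while pair 3 set a male KO against a female WT and pair 4 a female KO against a male WT. RNA came from whole tissue, called duodenum in the series design and small intestine in the sample labels, so fewer cells of a type and less RNA per cell cannot be told apart.

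The hydrolases sit on the outer face of the enterocyte brush border, where lactase splits milk sugar, sucrase-isomaltase and maltase-glucoamylase finish the breakdown of sucrose and starch, and trehalase splits trehalose. Glucose and galactose then enter with sodium through SGLT1 (Slc5a1) and fructose through GLUT5 (Slc2a5), and GLUT2 (Slc2a2) lets them out toward the blood. Ketohexokinase (Khk) is the first enzyme of fructose use, and glucose-6-phosphatase (G6pc) releases free glucose as the last step of gluconeogenesis.

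The 300-base promoter windows of 4 genes are shown. Lct, Treh and Khk were the genes below that passed the test. Sis, another brush-border gene, did not pass, but it was lower in 4 of 4 pairs and is no unchanged contrast. All windows are from RefSeq on build GRCm38.p6 and run 5′ to 3′ on the strand of the gene. They hold 250 bases before and 50 from the gene's start. Capitals mark matches, on either strand, to a GATA motif (AGATAA or TGATAA), an HNF1 half-site (GTTAAT), a CDX motif (TTTATNG), an E-box (CACGTG) or the κB consensus.
Lct (chr1:128328269-128328568, minus strand): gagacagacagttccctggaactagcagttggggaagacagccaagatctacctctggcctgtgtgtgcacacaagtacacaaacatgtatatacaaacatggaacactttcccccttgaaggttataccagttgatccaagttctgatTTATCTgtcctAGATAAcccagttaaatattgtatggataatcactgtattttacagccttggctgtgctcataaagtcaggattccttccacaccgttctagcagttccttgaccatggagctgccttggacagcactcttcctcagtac
Treh (chr9:44672983-44673282, plus strand): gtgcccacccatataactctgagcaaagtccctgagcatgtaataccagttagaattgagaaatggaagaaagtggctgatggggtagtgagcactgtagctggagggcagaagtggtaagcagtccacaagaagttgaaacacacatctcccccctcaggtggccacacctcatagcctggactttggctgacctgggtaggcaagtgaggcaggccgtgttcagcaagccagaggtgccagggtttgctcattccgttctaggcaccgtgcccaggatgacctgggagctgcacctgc
Khk (chr5:30921309-30921608, plus strand): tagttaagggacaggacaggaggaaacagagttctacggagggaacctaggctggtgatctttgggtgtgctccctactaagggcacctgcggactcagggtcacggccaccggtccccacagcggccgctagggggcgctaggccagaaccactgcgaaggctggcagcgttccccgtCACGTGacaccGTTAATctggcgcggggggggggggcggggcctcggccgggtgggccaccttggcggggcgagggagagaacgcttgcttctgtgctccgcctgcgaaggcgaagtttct
Sis (chr3:72967814-72968113, minus strand): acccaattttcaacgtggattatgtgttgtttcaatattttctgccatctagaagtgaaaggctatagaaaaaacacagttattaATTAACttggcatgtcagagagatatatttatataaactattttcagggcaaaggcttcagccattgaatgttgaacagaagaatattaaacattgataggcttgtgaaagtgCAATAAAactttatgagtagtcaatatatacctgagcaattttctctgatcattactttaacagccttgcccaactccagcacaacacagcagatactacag

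The Lct window held 2 GATA matches, at −101 to −96 and −90 to −85 from the gene's start. The Sis window held 1 HNF1 half-site (−165 to −160) and 1 CDX match (−52 to −46), and that of Khk held an E-box (−71 to −66) beside an HNF1 half-site (−60 to −55). The Treh window held no match to these letters. The κB consensus, the motif bound by NF-κB, matched 0 of the 9 windows, against 8.5% of 32851 promoters of the same length. GATA motifs were found in 3 of the 9 (Lct, Mgam and Slc2a2) and in 18.6% of all promoters. HNF1 half-sites were found in 3 (Sis, Khk and G6pc) and in 7.1% of all, E-boxes in 3 (Mgam, Slc5a1 and Khk) and in 7.2% of all, and the CDX motif in Sis alone and in 10.9% of all. The motifs were chosen with these windows in view, and a match describes letters only.

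The deposited values are log2 expression values, and array medians ran from 6.77 to 6.81. The 4 pair means of a probe set lay within 0.05 of each other in 70.0% of probe sets, and the median SD of the pair means was 0.0175, against 0.0897 from the spread of the differences between siblings. The tests therefore compare KO with WT within pairs. Where values of separate pairs are set side by side below, as in whether the groups overlap, this describes the deposited values only. RNA integrity ran from 7.0 to 8.7. Nfkbia itself was at 6.82, 6.65, 7.72 and 6.65 in KO mice of pairs 1 to 4, against 9.75, 9.91, 9.01 and 9.78 in their WT siblings, and pair 3 showed the smallest gap. The whole probe set table was fitted with limma with the pair as a block, and p-values were adjusted over all 22206 probe sets by the Benjamini-Hochberg method. A ± gives the SD over the 4 sibling differences, and the number of arrays limits the precision. Intervals are those of the limma fit for each probe set alone and are not adjusted over probe sets. An interval can thus exclude a null difference where the adjusted p does not pass.

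Of the 9 genes, Lct, Treh and Khk were lower in KO mice past the adjusted threshold of 0.05, 0 were higher, and 6 were not called. The same rule called 5.86% of all probe sets, 2.70% as lower and 3.16% as higher. Lct, Treh, Khk, Sis and G6pc were lower in 4 of 4 pairs, as were 17.9% of all probe sets, while 16.5% of all probe sets were higher in 4 of 4. The KO and WT values of the same 5 genes did not overlap, as for 33.1% of all probe sets. Where pair means are nearly equal, this largely restates the shared direction of the 4 pairs. The median difference of the 9 genes was −0.26, against −0.015 over all probe sets. Without the block limma called 5 of the 9, adding Sis and G6pc, but also 34.4% of all probe sets. With sex or RNA integrity as a further term beside the block, which leaves fewer residual degrees of freedom, limma called Lct only. It then called 464 and 364 of all probe sets. The estimates were −0.53 and −0.49 for Treh and −0.44 in both fits for Khk. With sex as the term they could not differ from the reported fit, because pairs 3 and 4 set the sexes opposite ways.

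**Figure D1:**
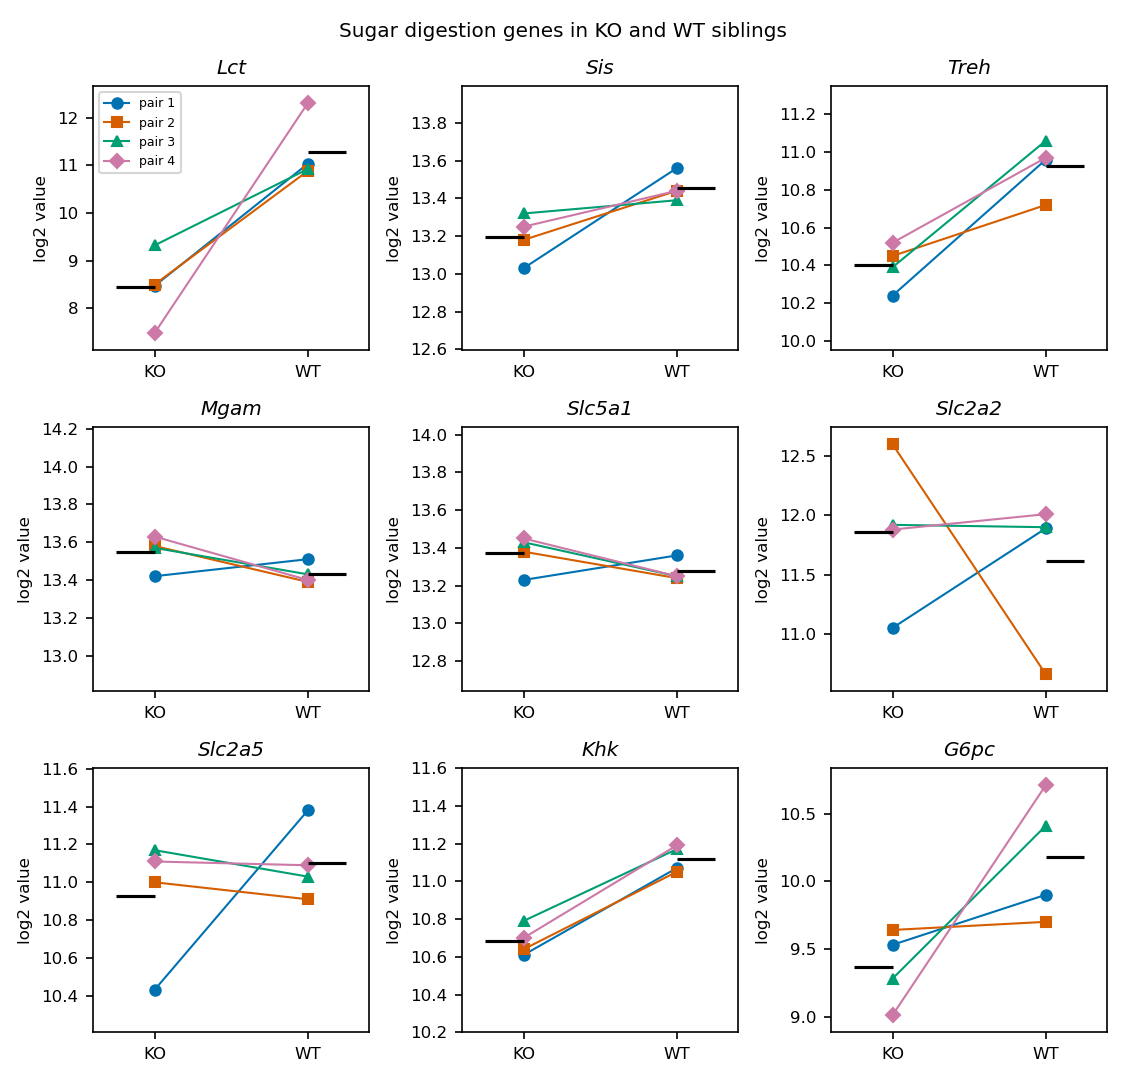
Log2 value of each of the 9 genes (y axis, a separate range for each gene) in KO mice (left) and WT mice (right). Lines join siblings, and black bars are the means of 4. The KO values of Lct, at 7.48 to 9.32, all lie below the WT values, at 10.88 to 12.30, while those of Mgam, Slc5a1, Slc2a2 and Slc2a5 overlap between the groups.

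Lct, which encodes lactase, had log2 values of 8.47, 8.50, 9.32 and 7.48 in KO mice of pairs 1 to 4, against 11.03, 10.88, 10.92 and 12.30 in WT mice. Every KO value was below every WT value, and pair 4 held both the lowest KO and the highest WT value. Lct was lower by 7.16-fold in KO mice (−2.84 ± 1.38 on the log2 scale, n = 4 pairs, limma adjusted p = 0.0270), which ranked 5 of 22206 probe sets by size of fall. The within-pair differences were −2.56 and −2.38 in the pairs of 1 sex and −1.60 and −4.82 in the pairs of opposite sex. The exact sign-flip test over 4 pairs gave p = 0.125, the smallest it can give. Lct lost its call without pair 1 (adjusted p = 0.0801) or pair 2 (adjusted p = 0.0886), with estimates of −2.93 and −2.99. Without pair 4, which had the widest gap, the estimate was smaller in size, at −2.18, and stayed called (limma adjusted p = 0.0171).

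Sis, which encodes sucrase-isomaltase, was at 13.03, 13.18, 13.32 and 13.25 in KO mice and at 13.56, 13.44, 13.39 and 13.44 in WT mice. Its values did not overlap between the groups, yet in pair 3 they differed by 0.07 only. The difference of −0.26 ± 0.195 (95% interval −0.49 to −0.04, limma adjusted p = 0.134) did not pass the threshold. Without the block it did (limma adjusted p = 0.0170), and centred on enterocyte markers its sign turned (0.060).

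Treh, which encodes trehalase, was at 10.24, 10.45, 10.39 and 10.52 in KO mice and at 10.96, 10.72, 11.06 and 10.97 in WT mice. The groups did not overlap, and pair 2 showed the smallest gap. Treh was lower by 1.44-fold (−0.53 ± 0.208, limma adjusted p = 0.0337), with differences of −0.72, −0.27, −0.67 and −0.45 in pairs 1 to 4. It lost its call on leaving out any 1 pair (limma adjusted p = 0.107, 0.0696, 0.0944 and 0.0894 without pairs 1 to 4).

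Mgam, which encodes maltase-glucoamylase, was at 13.42, 13.58, 13.57 and 13.63 in KO mice and at 13.51, 13.39, 13.43 and 13.40 in WT mice. The groups overlapped, with pair 1 lower in the KO mouse and the other pairs higher. Its difference was 0.12 ± 0.143 (interval −0.08 to 0.31, limma adjusted p = 0.394), and centred on housekeeping genes its sign turned (−0.049). A decrease of Mgam as large as the fall of Lct lies outside this interval. How much higher so bright a probe set can read was not tested.

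**Figure D2:**
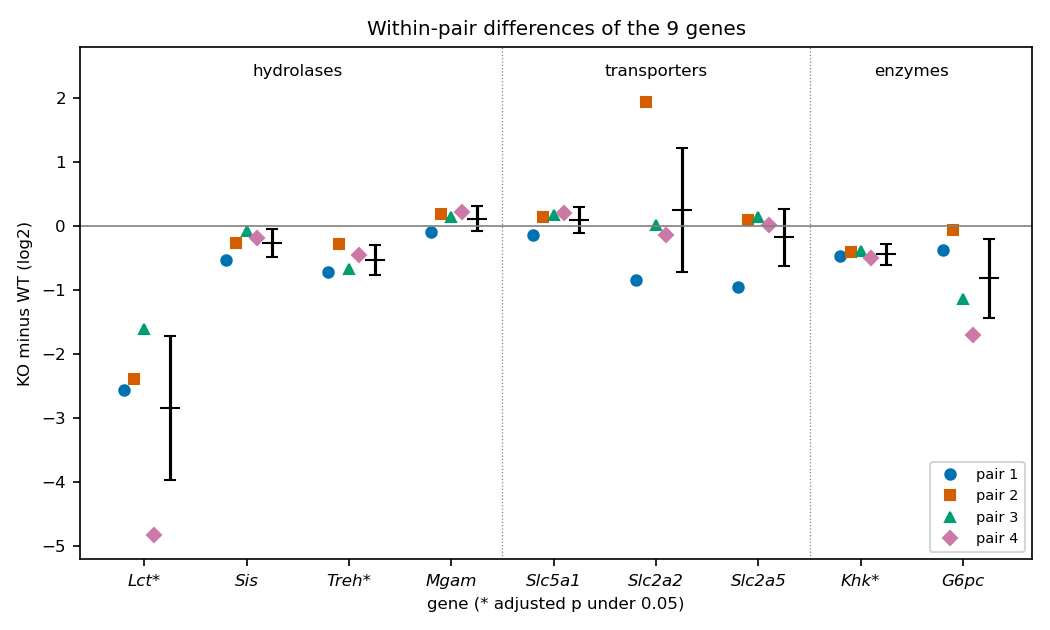
KO minus WT on the log2 scale (y axis) for each gene (x axis), with 1 coloured point per sibling pair and, in black, the mean and the 95% interval of the limma fit. Lct lies at −2.84 and all 4 of its points lie below −1.5, while Khk has the narrowest spread, with points from −0.49 to −0.38.

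Of the transporter genes 0 of 3 passed the test in either direction. Slc5a1, which encodes the sodium-glucose cotransporter SGLT1, was at 13.23, 13.38, 13.43 and 13.45 in KO mice and at 13.36, 13.24, 13.25 and 13.25 in WT mice. Pair 1 was lower in the KO mouse and the others higher. Its difference was 0.10 ± 0.154 (interval −0.10 to 0.30, limma adjusted p = 0.492), and it too turned its sign when centred on housekeeping genes (−0.069). The Mgam and Slc5a1 differences took the same sign in each of the 4 pairs.

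Slc2a2, which encodes the glucose transporter GLUT2, was at 11.05, 12.60, 11.92 and 11.88 in KO mice and at 11.89, 10.66, 11.90 and 12.01 in WT mice. Pair 2 had by far the widest gap, in favour of the KO mouse, and pair 1 ran the other way. The difference of 0.25 ± 1.19 (interval −0.72 to 1.22, limma adjusted p = 0.729) became −0.32 without pair 2. In pair 2 the markers of the proximal small intestine also stood apart, with a median difference of 2.26 over 8 genes, against −0.075, 0.07 and 0.28 in pairs 1, 3 and 4. Over the 4 pairs limma called 1 of the 8 higher, the iron exporter gene Slc40a1 (1.75 ± 0.775), and 1 lower, Cyp2b10 (−2.46 ± 1.148), which was also lower in pair 2 (−2.14). The summed level of these markers ran from 13.2 to 14.2 in KO mice and from 12.7 to 13.4 in WT mice on the log2 scale, and their part in the Slc2a2 result was not tested.

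Slc2a5, which encodes the fructose transporter GLUT5, was at 10.43, 11.00, 11.17 and 11.11 in KO mice and at 11.38, 10.91, 11.03 and 11.09 in WT mice. Pair 1 alone showed a gap of size, −0.95, and in the other pairs the differences were 0.09, 0.14 and 0.02. The mean of −0.18 ± 0.519 (interval −0.62 to 0.27, limma adjusted p = 0.583) became 0.083 without pair 1. In pair 1 all 3 transporter genes were lower in the KO mouse.

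Khk, which encodes ketohexokinase, was at 10.61, 10.64, 10.79 and 10.70 in KO mice and at 11.07, 11.05, 11.17 and 11.19 in WT mice. The groups did not overlap, and the 4 gaps were nearly alike at −0.46, −0.41, −0.38 and −0.49. Khk was lower by 1.35-fold (−0.44 ± 0.0493, limma adjusted p = 0.0235). It lost its call without any 1 pair (limma adjusted p = 0.0836, 0.0956, 0.0651 and 0.0831 without pairs 1 to 4), while the estimate stayed between −0.45 and −0.42.

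G6pc, which encodes the catalytic subunit of glucose-6-phosphatase, was at 9.53, 9.64, 9.28 and 9.01 in KO mice and at 9.90, 9.70, 10.41 and 10.71 in WT mice. The groups did not overlap, but the gap was wide in pairs 3 and 4 (−1.13 and −1.70) and small in pairs 1 and 2 (−0.37 and −0.06). The difference of −0.82 ± 0.742 (interval −1.43 to −0.20) did not pass the threshold (limma adjusted p = 0.107), and did without the block (limma adjusted p = 0.0224). Pairs 3 and 4 were also those in which pancreatic acinar markers (medians −3.99 and −3.37) and Brunner gland and stomach markers (−4.35 and −4.26) were far lower in KO mice, and their part in the G6pc result was not tested.

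The change of Lct was set against that of each other gene within pairs. Lct fell further than each of the 8 in 4 of 4 pairs, by −2.03 ± 1.12 against G6pc, the nearest, and by −3.09 ± 1.64 against Slc2a2, the farthest. The gap was −2.58 ± 1.39 against Sis and −2.31 ± 1.46 against Treh. The exact sign-flip test gave p = 0.125 for each of the 8 comparisons, also after adjustment, which is the smallest that 16 sign assignments allow, so this test cannot go under 0.05 here. Without pair 4 the gaps were smaller, from −1.63 against Treh to −2.55 against Slc2a2, and −1.89 against Sis.

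Among 19 other sugar transporter genes limma called 4 lower and 2 higher, with a median difference of −0.09 against −0.015 over all probe sets. The largest falls belonged to sodium-coupled carriers of the SGLT1 family. Slc5a4b was at 8.01, 7.99, 8.68 and 7.58 in KO mice and at 10.09, 10.07, 9.66 and 10.43 in WT mice (−2.0 ± 0.769, limma adjusted p = 0.0169). Its neighbour in the family, Slc5a4a, fell by 1.47 ± 0.676 (limma adjusted p = 0.0258). These 2 genes are close relatives, whose human counterpart SGLT3 is known as a glucose sensor, and how far their probes tell them apart was not analysed. Slc5a11, which carries myo-inositol with sodium, was at 7.26, 7.35, 7.86 and 7.16 in KO mice and at 9.17, 9.03, 8.86 and 9.38 in WT mice (−1.70 ± 0.518, limma adjusted p = 0.0107). For these 3 genes the KO and WT values did not overlap, and pair 3 had the smallest gap in each, as it had for Lct and Nfkbia. Sis and Khk also had their smallest gap in pair 3, while Treh and G6pc had theirs in pair 2. What lies behind the gaps of pair 3 was not tested.

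Slc2a1, the gene of the widely expressed glucose transporter GLUT1, was higher in KO mice (9.37, 9.53, 9.57 and 9.80, against 9.02, 8.88, 8.80 and 8.65 in WT mice, a rise of 0.73 ± 0.331, limma adjusted p = 0.0321). The other calls of the list, named after their values were seen, were the sugar transporter gene Slc50a1 (0.52 ± 0.0954) and the urate transporter gene Slc2a9 (−0.51 ± 0.169). All 6 kept their sign under the 17 other settings. Their direction was the same in every pair, so leaving out pairs could not turn it, and several other settings leave the estimate unchanged. Without pairs 1 to 4 the calls of the list numbered 1, 0, 4 and 2.

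**Figure D3:**
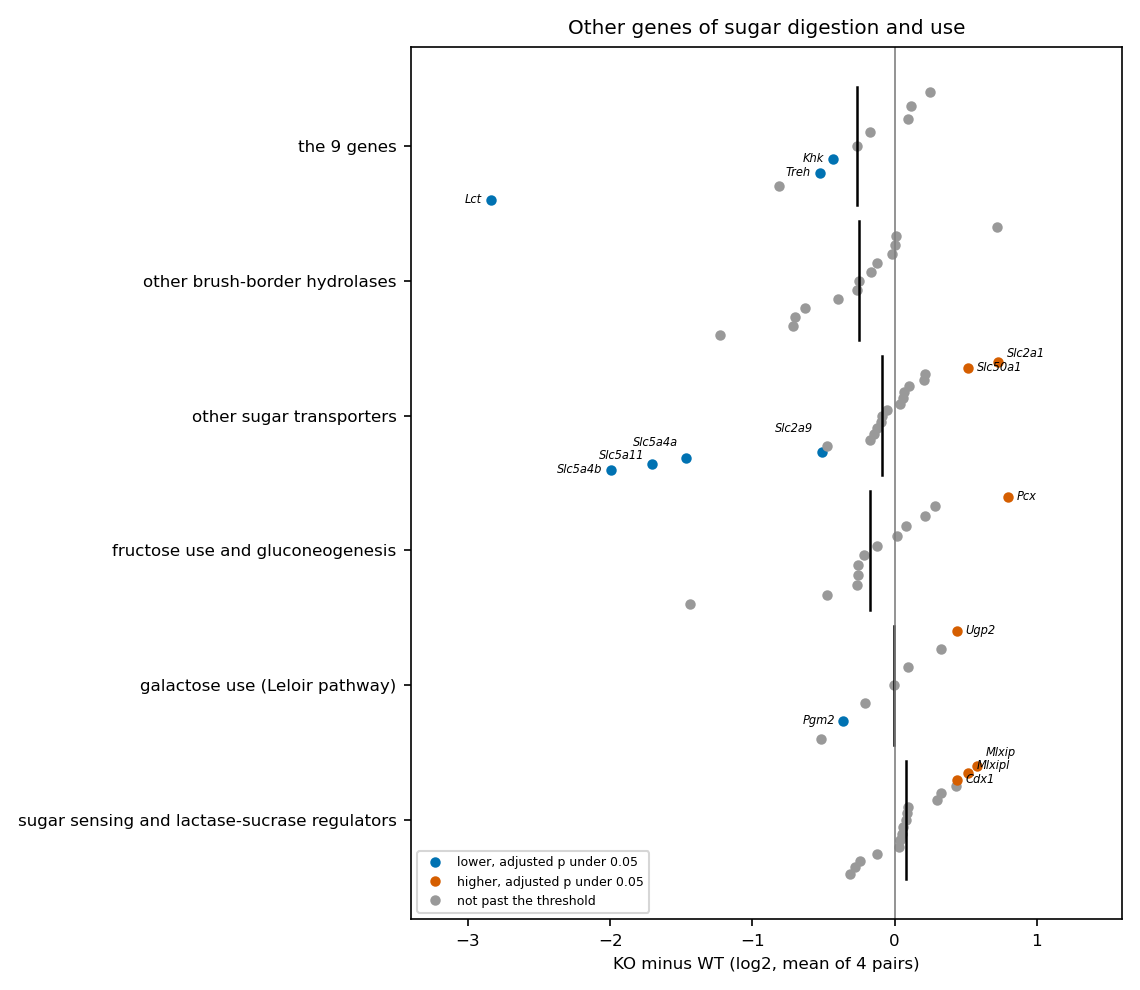
KO minus WT (x axis, log2, mean of 4 pairs) for the 9 genes and for 5 further lists (y axis), with 1 point per gene, spread vertically by rank, and the median of each list as a black bar. Lct lies farthest to the left, and the next called points are Slc5a4b, Slc5a11 and Slc5a4a.

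Among 13 other brush-border hydrolases and brush-border proteins limma called 0. Without the block it called 2 of them, and 34.4% of all probe sets. The largest differences were those of the metalloprotease gene Mep1a (−1.23 ± 1.06, limma adjusted p = 0.0929) and of the enteropeptidase gene Tmprss15 (0.72 ± 1.54, adjusted p = 0.414), which turned its sign without pair 2. At an unadjusted p under 0.05 limma had 3 of the 13, and 6098 of all 22206 probe sets. Their median was −0.25. Among 12 genes of fructose use and gluconeogenesis 1 was called, the pyruvate carboxylase gene Pcx, which rose by 0.80 ± 0.342 (limma adjusted p = 0.0271). Pck1, the gene of the gluconeogenic enzyme phosphoenolpyruvate carboxykinase, was picked after its values were seen. It was at 9.62, 9.57, 8.54 and 7.35 in KO mice and at 9.28, 9.19, 10.73 and 11.63 in WT mice (−1.44 ± 2.24, limma adjusted p = 0.272). Like G6pc it was far lower in the KO mouse of pairs 3 and 4, but it was higher in the KO mouse of pairs 1 and 2.

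In the Leloir pathway, which turns galactose into glucose phosphates, 1 of 7 genes rose, the UDP-glucose pyrophosphorylase gene Ugp2 (0.44 ± 0.0963, limma adjusted p = 0.0273). The phosphoglucomutase gene Pgm2 fell by 0.36 ± 0.121 (adjusted p = 0.0489). Of 17 genes of sugar sensing and of the control of lactase and sucrase, 3 rose and 0 fell. Mlxipl, which encodes the carbohydrate response factor ChREBP, was at 9.54, 9.69, 9.81 and 9.93 in KO mice and at 9.29, 9.22, 9.19 and 9.19 in WT mice (0.52 ± 0.211, limma adjusted p = 0.0352). Its relative Mlxip rose by 0.58 ± 0.110 (adjusted p = 0.0161) and the homeobox gene Cdx1 by 0.44 ± 0.128 (adjusted p = 0.0332). These 5 called genes kept their sign under all 17 other settings, and limma called 0 of them on leaving out any 1 pair. They too had the same direction in every pair, so fits on fewer pairs could not turn their sign. With the arrays centred on housekeeping genes, a shift of −0.17 in the median probe set, the sensing list had 1 higher and 4 lower.

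The tissue was checked against markers. Enterocyte markers had 0 of 14 called higher and 3 called lower. These were the adenosine deaminase gene Ada (−0.96 ± 0.371), the peptide transporter gene Slc15a1 (−0.72 ± 0.383) and the amino acid transporter gene Slc6a19 (−0.49 ± 0.191). Of the 14, 8 were lower in 4 of 4 pairs, as were 17.9% of all probe sets, and 0 were higher in 4 of 4. The list's median was −0.23, and its medians were −0.15, −0.18, −0.19 and −0.67 in pairs 1 to 4, largest in size in pair 4, where Lct had its widest gap. Its summed level ran from 16.5 to 16.8 in KO mice and from 17.0 to 17.2 in WT mice. The part of these markers in the fall of Lct, Treh and Khk was not tested. With each array centred on them, the difference of Lct was −2.52 and stayed called by limma, while Treh (−0.21) and Khk (−0.11) were not called (limma adjusted p = 0.374 and 0.623). In that fit 1 variance served all probe sets, so its calls do not reflect each gene's own spread. Pan-epithelial markers had 0 of 12 called and 6 of 12 lower in 4 of 4 pairs, with a median of −0.15, and Vil1, the gene whose promoter drives the Cre, was at −0.34 ± 0.110 (adjusted p = 0.0512). Centred on them Lct, Treh and Khk were called.

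**Figure D4:**
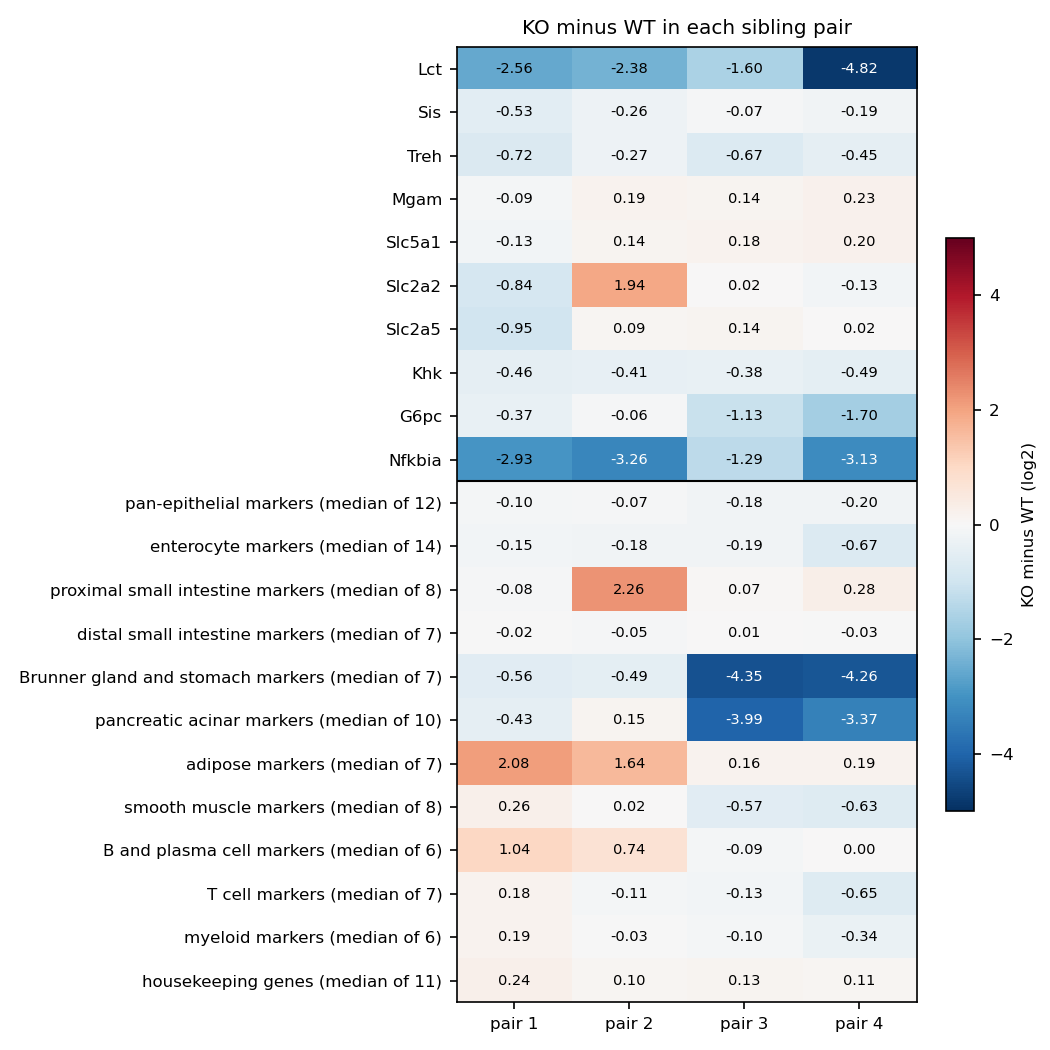
KO minus WT on the log2 scale in each sibling pair (columns) for the 9 genes and Nfkbia (upper rows) and for the median of each marker list (lower rows), with red for higher and blue for lower in KO mice. Lct is negative in all 4 pairs, Slc2a2 and the proximal markers stand out in pair 2, and G6pc, the acinar and the stomach markers are lowest in pairs 3 and 4.

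Other tissues also differed between the pairs. Acinar markers had 0 of 10 called, with summed levels from 9.89 to 11.9 in KO mice and from 11.3 to 14.0 in WT mice. Brunner gland and stomach markers had 2 of 7 called lower, and all 7 were lower in 4 of 4 pairs (17.9% of all probe sets were). Their summed levels ran from 7.92 to 9.34 in KO mice and from 10.03 to 12.3 in WT mice. Adipose markers had 0 of 7 called but medians of 2.08 and 1.64 in pairs 1 and 2, against 0.16 and 0.19 in pairs 3 and 4. The part of these tissues in the results was not tested. Over pairs 1 and 2 alone Lct was at −2.47 (limma adjusted p = 0.0636) and Khk at −0.44 (0.147). Over pairs 3 and 4 alone they were at −3.21 (limma adjusted p = 0.235) and −0.44 (0.195). Neither gene passed the threshold in either fit. Distal small intestine markers had 1 of 7 higher, the ileal bile acid binding gene Fabp6 (0.41 ± 0.0529, limma adjusted p = 0.0272).

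By the root mean square distance over the 4 within-pair differences, the gene nearest to Lct among 18497 compared was Cyp2b10 (0.643), a cytochrome P450 of drug metabolism that is also 1 of the 8 proximal markers, with differences of −2.90, −2.14, −1.04 and −3.74 in pairs 1 to 4. Nt5e (0.644), which encodes the ectonucleotidase CD73, had differences of −1.95, −2.11, −2.45 and −4.12. Cubn (0.673), the gene of the vitamin B12 receptor cubilin, had −1.64, −1.67, −0.97 and −5.07. Clps (0.736), which encodes the lipase cofactor colipase, and Susd2 (0.869) followed. Each of the 5 was lower in 4 of 4 pairs and had its widest gap in pair 4, as Lct had, and their choice by this distance fixes that likeness.

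**Figure D5:**
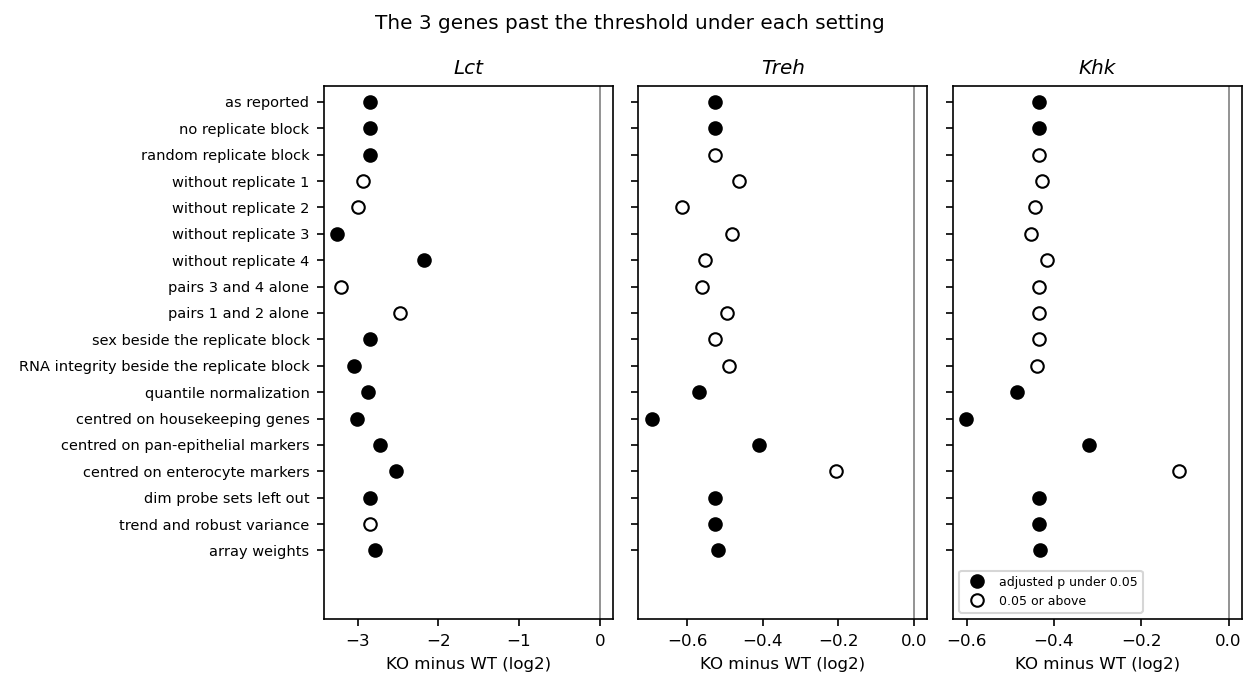
KO minus WT on the log2 scale (x axis, a separate range for each gene) for Lct, Treh and Khk under each setting of the fit (y axis), where filled points have an adjusted p under 0.05. All points lie below 0, and those of Khk come nearest to it, at −0.11, with the arrays centred on enterocyte markers.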

How the data were processed

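RNA of 8 mice was hybridised to Clariom S mouse arrays. The deposited values are log2 expression values made by the authors with RMA in the Transcriptome Analysis Console 4.0, per the submitters' processing notes. RMA corrects background and scales arrays to a shared distribution. In array values, differences of dim and of very bright probe sets can be compressed. The nearly equal pair means are a feature of the deposited values and no label records a step behind it. Probe sets were named through the platform annotation and RefSeq gene IDs: 19572 had 1 symbol, 0 several and 2634 none.

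KO and WT were compared with limma 3.58.1 in R 4.3.3 on the log2 values as deposited, with the sibling pair, given in the sample descriptions, as a block and Benjamini-Hochberg adjustment (threshold 0.05, 3 residual degrees of freedom, 6.63 after moderation). Single values had an exact two-sided sign-flip test over 4 pairs. The fit was tested on simulated data. All 9 genes lay above 5.65, a background level set by 1091 olfactory receptor probe sets (95th percentile). Named genes were the 9, up to 4 called genes of each list by size (or the 2 largest differences where 0 were called), Nfkbia and the 5 genes nearest Lct. For genes with several probe sets that of the highest mean was used. Members and lists were chosen with earlier results of these data known. Alternatives covered the block, left-out pairs, covariates, scaling, a dim filter and limma's variance options.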

Additional observations from a re-analysis of the deposited data

Results flagged for a closer look

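Of 27 groups of 4 values examined over the 9 genes, 4 held a value whose gap to its nearest neighbour exceeded Dixon's critical share of the range for 4 samples, and chance gives about 1 in 20. The WT values of Lct had a ratio of 0.894, from 12.30 in pair 4. Those of Slc5a1 had 0.917, from 13.36 in pair 1. Those of Slc2a2 had 0.911, from 10.66 in pair 2. The within-pair differences of Slc2a5 had 0.89, from −0.95 in pair 1. The ratios of WT values set levels of separate pairs against each other. Over the 9 genes the range of the 4 pair means ran from 0.05 to 0.475, and it was 0.43 for Lct. Where pair means are nearly equal, a WT value that stands apart is tied to the value of its KO sibling. The KO values are then no second observation.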

How the results depend on the processing

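The fall of Lct (−3.25 to −2.18), Treh (−0.69 to −0.21), Khk (−0.60 to −0.11) and G6pc (−1.42 to −0.22) kept its direction under all 17 alternatives. Most of these could not turn it. Each gene was lower in 4 of 4 pairs, so leaving out or weighting pairs keeps the sign. The block, sex, dim filter and variance options leave the estimate unchanged. Only the RNA integrity term and the scaling settings could turn it. Against 1301 probe sets and 3 of the 9 genes called in the reported fit, limma called 145 to 459 probe sets and 0 to 1 of the 9 on leaving out each pair in turn. Over pairs 3 and 4 alone it called 26 and 0, and over pairs 1 and 2 alone 0 and 0 (5278 probe sets at an unadjusted p under 0.05, and 4 of the 9 genes in each). Fewer samples entered these fits. With sex as a term it called 464 and 1, with RNA integrity 364 and 1, and with trend and robust variance 1997 and 2 (Treh and Khk, with Lct at adjusted p = 0.109). Without the replicate block it called 7648 and 5, adding Sis (adjusted p = 0.0170) and G6pc (0.0224). With the pair as a random block (correlation −0.924) it called 2018 and 1. The pair is the block because the sample descriptions name sibling pairs. Quantile normalization, the dim filter and array weights called 1222 to 1373 probe sets and the same 3 genes.

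Scaling moved the calls. Centring on housekeeping genes shifted the median of all probe sets by −0.17 and called 5673 (8.78% higher, against 54.0% in the reported fit), with 5 of the 9 genes. Centring on pan-epithelial markers shifted it by 0.12 and called 3014 (86.1% higher), with the same 3. Centring on enterocyte markers shifted it by 0.32 and called 4833 (95.7% higher), with 3 of the 9 but Lct, Slc2a2 and G6pc. There limma's prior degrees of freedom were infinite, so 1 variance served all probe sets and its p-values do not reflect each gene's own spread.

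Signs turned for 5 genes. Slc2a5 was between −0.28 and 0.083 on leaving out each pair (positive without pair 1), at 0.08 over pairs 3 and 4 alone, and at 0.15 centred on enterocyte markers. Slc2a2 was between −0.32 and 0.61 on leaving out each pair (negative without pair 2) and at −0.055 over pairs 3 and 4 alone. Centred on housekeeping genes, Mgam was at −0.049 and Slc5a1 at −0.069, and centred on enterocyte markers Sis was at 0.060. The cause was not tested. On leaving out each pair, the Lct contrast ran from −2.93 to −1.89 with Sis and from −2.54 to −1.66 with G6pc, and all 8 contrasts were smallest in size without pair 4. Each of the 9 had 1 probe set, so no other probe set could be tried.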

Other observations

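The amylase genes, which start starch digestion and are made mainly in the pancreas, had 0 of 3 called and 0 lower in 4 of 4 pairs. Their median differences were −0.27, 1.86, −3.24 and −2.42 in pairs 1 to 4, so pair 2 ran against pairs 3 and 4, and Amy2b (−1.74) and Amy2a5 (−0.84) turned positive over pairs 1 and 2 alone. Hepatocyte markers had 1 of 8 higher, the tyrosine aminotransferase gene Tat (2.10), which was called by limma on leaving out each of the 4 pairs in turn, and 1 lower, the antitrypsin gene Serpina1a (−1.20). T cell markers had 1 of 7 higher (Cd4, 0.40), kidney proximal tubule markers 1 of 6 lower (Slc22a12, −0.37), and B and plasma cell, myeloid and smooth muscle markers 0 called. Of 11 housekeeping genes 1 was higher (Gusb, 0.37), 7 were higher in 4 of 4 pairs (16.5% of all probe sets were), and their median was 0.19.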
